A study of Mus musculus with 34 samples.

Results

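Binding of AP-1 monomers, PPARγ, PU.1 and CEBPα was examined at 7 genes of cholesterol efflux and the LXR pathway, Abca1, Abcg1, Apoe, Nr1h3, Nr1h2, Mylip and Srebf1. A peak was assigned to a gene when its midpoint lay in the gene body or within 20 kb on either side in GENCODE vM21 on mm10. This gave 596 of the 596383 peaks in 30 lists. Merging peaks that shared 1 bp or more across lists left 85 loci at the 7 genes, of 93024 in all. The ChIP-seq data came from thioglycollate elicited macrophages (TGEMs), which enter the peritoneum of a mouse after an injection of thioglycollate. All groups were TGEMs of male mice, and the methods of the study give an age of 8 weeks and a harvest 3 days after the injection for the wild types. The age of the PPARgKO mice is not given in the sources used here. The wild types were C57BL/6 (C57Bl/6EiJ in the labels, C57BL/6J in the methods) and BALB/cJ. Cells received vehicle (Veh, PBS) or KLA, a lipid A that activates TLR4, at 100 ng/mL for 1 h. In C57BL/6 the monomers ATF3, Jun, JunD, Fos, FosL2 and JunB were mapped with both treatments, and in BALB/cJ all of these but FosL2. TGEMs labelled PPARgKO, given as C57BL/6 in the labels, were mapped with Veh for ATF3, Jun and JunD. The construction of the knockout is not given in the sources used here. No PPARγ list from these mice was analysed, so the deletion itself was not checked. Lists of PPARγ (Veh) and of PU.1 and CEBPα (Veh and KLA) came from C57BL/6. Replicate experiments are combined in each list, so each group is 1 list, no test between groups was possible, and the comparisons below are descriptions.

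LXRα (Nr1h3) and LXRβ (Nr1h2) are nuclear receptors that are activated by oxysterols and bind DNA with RXR. In macrophages they raise the transcription of genes that remove cholesterol, among them the transporters Abca1 and Abcg1 and the lipoprotein Apoe, and of Mylip, which targets the LDL receptor for degradation, and Srebf1, which drives fatty acid synthesis. PPARγ is another partner of RXR and is known to act upstream of LXRα in macrophages. LXR itself was not mapped. AP-1 monomers bind as dimers, mostly to the TRE (TGACTCA) or CRE (TGACGTCA).

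The sequences below are those of the sites on which the results turn, namely the loci with peaks in most lists at Abca1, Abcg1, Nr1h3 and Apoe, a second PPARγ site of Abcg1, a site of Abca1 with AP-1 peaks only after KLA, and the Abca1 promoter. They are from GRCm38.p6, the assembly of mm10. Whether the deposited peak starts count from 0 or 1 is not stated, and they were taken as given. Loci are named by the distance of their centre from the annotated gene start. Capitals mark matches to the TRE, the CRE, the C/EBP-ATF motif TGATGCAA, the C/EBP motif TTGCNNAA, the PU.1 motif ACTTCCT, the nuclear receptor half-site AGGTCA, and DR1 or DR4 with up to 2 mismatches, on either strand. DR1 and DR4 are direct repeats of the half-site with 1 or 4 free bases between, bound by PPARγ-RXR and LXR-RXR. In the promoter, DR4 was allowed 3 mismatches. Each is the 200 bp at the centre of a locus, on the plus strand, except the promoter, which is the 200 bp before the gene start on the strand of the gene.
Abcg1 −19.1 kb, chr17:31038495-31038694, intergenic: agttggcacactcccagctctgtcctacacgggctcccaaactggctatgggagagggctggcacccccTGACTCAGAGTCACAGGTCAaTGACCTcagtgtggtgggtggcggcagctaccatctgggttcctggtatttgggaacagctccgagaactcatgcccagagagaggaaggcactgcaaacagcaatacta
Abcg1 −17.9 kb, chr17:31039713-31039912, intergenic: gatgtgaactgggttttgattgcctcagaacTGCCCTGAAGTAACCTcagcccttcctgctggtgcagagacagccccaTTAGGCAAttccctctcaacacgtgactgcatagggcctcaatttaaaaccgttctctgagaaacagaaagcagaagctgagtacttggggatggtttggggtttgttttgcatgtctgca
Abca1 +39.4 kb, chr4:53120375-53120574, intron of Abca1: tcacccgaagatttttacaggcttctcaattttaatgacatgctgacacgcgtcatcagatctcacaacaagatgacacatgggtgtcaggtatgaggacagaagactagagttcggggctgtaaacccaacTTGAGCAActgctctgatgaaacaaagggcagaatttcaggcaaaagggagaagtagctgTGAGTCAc
Abca1 +52.5 kb, chr4:53107334-53107533, intron of Abca1: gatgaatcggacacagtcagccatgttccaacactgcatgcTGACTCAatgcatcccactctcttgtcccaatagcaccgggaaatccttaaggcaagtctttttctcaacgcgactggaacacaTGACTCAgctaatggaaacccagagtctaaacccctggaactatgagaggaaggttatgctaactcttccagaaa
Nr1h3 +5.9 kb, chr2:91196853-91197052, upstream of the coding transcripts: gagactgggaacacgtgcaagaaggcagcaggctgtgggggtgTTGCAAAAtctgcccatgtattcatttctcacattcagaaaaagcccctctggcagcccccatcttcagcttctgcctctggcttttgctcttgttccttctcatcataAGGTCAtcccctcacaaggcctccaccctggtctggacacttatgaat
Apoe +15.2 kb, chr7:19683839-19684038, intergenic: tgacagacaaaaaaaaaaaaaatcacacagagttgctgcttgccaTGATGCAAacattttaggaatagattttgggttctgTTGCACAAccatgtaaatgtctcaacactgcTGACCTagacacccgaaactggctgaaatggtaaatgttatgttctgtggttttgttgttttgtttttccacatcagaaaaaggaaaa
Abca1 promoter, chr4:53159896-53160095, minus strand: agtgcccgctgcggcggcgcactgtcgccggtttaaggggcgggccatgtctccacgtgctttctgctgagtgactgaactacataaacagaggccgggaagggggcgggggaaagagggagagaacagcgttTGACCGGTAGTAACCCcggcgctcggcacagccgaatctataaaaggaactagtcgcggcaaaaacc
At Abcg1 −19.1 kb a TRE lay in bases 70 to 76 and a half-site in bases 84 to 89, followed by a half-site on the other strand in bases 91 to 96. The first of these half-sites was also the second part of a DR1 match with 2 mismatches in bases 77 to 89. Abcg1 −17.9 kb held a DR4 match with 2 mismatches on the minus strand in bases 32 to 47. Abca1 +52.5 kb held 2 TREs. Apoe +15.2 kb held the C/EBP-ATF motif, a C/EBP motif and a half-site, but no TRE or CRE. In the Abca1 promoter a DR4 match with 3 mismatches lay 52 to 67 bases before the start. Among 32851 RefSeq promoters, 18.5% held such a match in the 250 bases before the start. Of the 11 starts of member genes among them, 2 held one, at Abca1 and Srebf1. None of the 11 held a DR4 match with up to 2 mismatches, and the allowance of 3 was not planned beforehand.

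Matches to the TRE, the half-site and the C/EBP motif at the 85 loci were close in frequency to those at all loci. The central 200 bp held a TRE at 14 loci (16.5%), against 18.0% of the 92912 loci of the series on assembled chromosomes. A half-site was present at 12 loci (14.1%, series 14.6%), a C/EBP motif at 11 (12.9%, series 14.2%) and the PU.1 motif at 15 (17.6%, series 22.7%). The rarer motifs were found at few loci, so that their shares rest on small counts. The C/EBP-ATF motif was found at 3 loci (3.53%, series 1.79%) and the CRE at 1 (1.18%, series 0.987%). DR4 with up to 2 mismatches was found at 4 loci, all of them at Abcg1 (4.71%, series 2.44%), and DR1 at 2, also both at Abcg1 (2.35%, series 3.56%). The promoters of 6 member genes in the RefSeq table, all but Abcg1, held none of these motifs in the 250 bases before their 11 starts, with up to 2 mismatches in DR1 and DR4.

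The 85 loci were 49 in introns, 31 outside protein-coding transcripts and 5 in exons. AP-1 peaks were present at 64 of them, PPARγ at 37, PU.1 at 45 and CEBPα at 21, and 29 loci had both PPARγ and AP-1 peaks. Abca1 (chromosome 4, 53030787 to 53159895, minus strand) had 239 peaks at 26 loci, and 1.98% of 21938 protein-coding genes had as many loci in their windows. Abcg1 (chromosome 17, 31057675 to 31117988, plus strand) had 126 peaks at 18 loci (5.48% of genes had as many). Nr1h3 (chromosome 2, 91184061 to 91202834, minus strand) had 12 loci (14.1%) and Apoe (chromosome 7, 19696109 to 19699188, minus strand) had 11 (16.6%). The other LXR gene, Nr1h2 (chromosome 7, 44549616 to 44553951, minus strand), had 4 loci, a number reached by 51.5% of genes. Mylip (chromosome 13, 45389742 to 45412022, plus strand) had 8 loci (27.3%) and Srebf1 (chromosome 11, 60199089 to 60222581, minus strand) had 6 (38.0%). Windows differ in length, from 43.1 kb for Apoe to 169 kb for Abca1. Per 100 kb, Apoe had the most loci of the 7 genes at 25.5, and 4.35% of genes were at least as dense. It was followed by Nr1h3 at 20.4 (8.82%), Abcg1 at 17.9 (11.9%) and Abca1 at 15.4 (16.3%). Mylip had 12.8 (21.9%), Srebf1 9.45 (32.3%) and Nr1h2 9.02 (34.1%).

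Each peak was deposited with a count that is not scaled to library size, and the median count of a list ranged from 18 to 277. Counts were therefore ranked within a list. A percentile below is the share of peaks of the same list with an equal or lower count, so that the strongest peak is at 100. Limits given with a percentile are the percentiles of the exact 95% Poisson limits of the count and cover counting error only. Most lists held between 4290 and 41573 peaks, but the C57BL/6 lists of Fos Veh and JunB Veh held 1804 and 463, that of JunB Veh in BALB/cJ held 9, and that of Fos Veh in BALB/cJ was empty. Windows of 6 macrophage marker genes all held a peak in each of the 26 longer lists. Of 3 markers each of B cells, T cells and mesothelium, at most 2, 3 and 2 had a peak in any list, and Pax5, which defines B cells, had none in all 30.

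**Figure D1:**
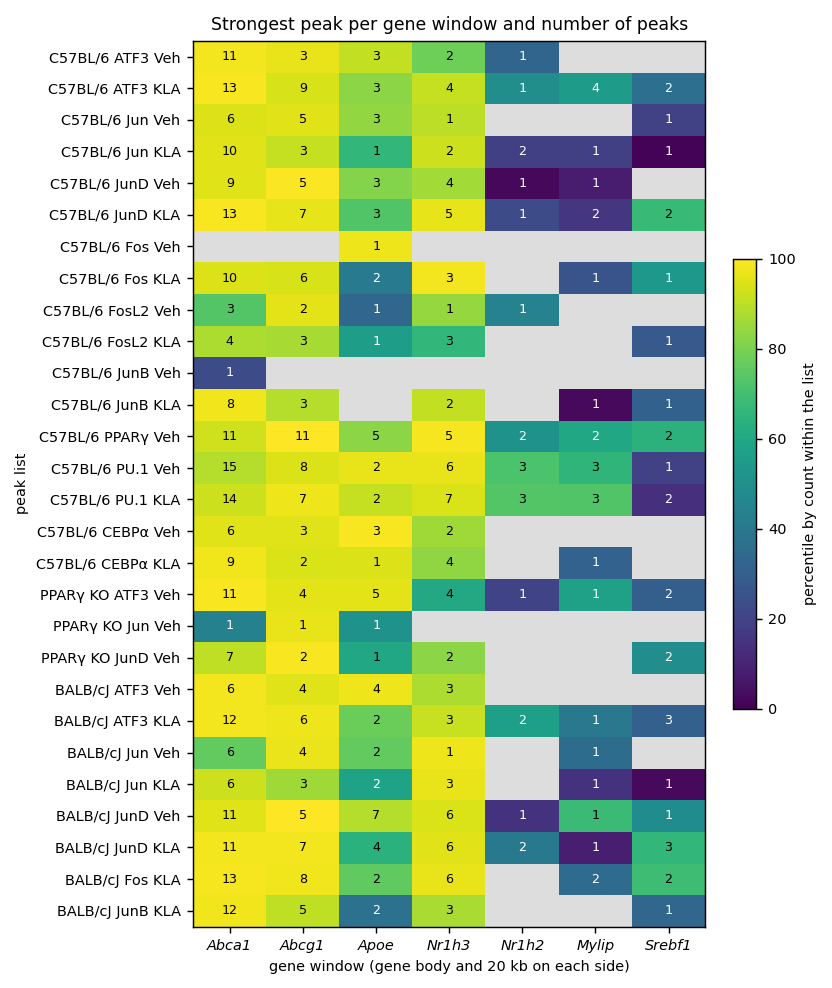
Rows are the 28 lists with a peak at the 7 genes and columns are the gene windows. The colour gives the percentile of the strongest peak within its list, the number in each cell counts the peaks, and grey marks windows without a peak. The strongest peaks at Abca1, Abcg1 and Nr1h3 lie near the top of most lists, and those at Nr1h2, Mylip and Srebf1 lie lower or are missing.

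AP-1 peaks were present at each of the 7 genes, but strong ones were concentrated at Abca1, Abcg1, Apoe and Nr1h3. These 4 genes also had the most loci, 26, 18, 11 and 12, against 4, 8 and 6 at Nr1h2, Mylip and Srebf1. The strongest of many peaks tends to rank higher than the strongest of few. At least 1 ATF3 Veh peak was found in the windows of 5 of the 7 genes in C57BL/6 (47.5% of all protein-coding genes), and ATF3 KLA peaks in all 7 (55.0%). Jun was found at 5 genes with Veh (39.4%) and at 7 with KLA (38.0%), and JunD at 6 (45.9%) and 7 (52.0%). Fos KLA peaks were at 6 genes (44.7%), while the short Fos Veh list had 1 peak, at Apoe (13.5%). The PPARγ list had peaks at all 7 genes (62.2%), as did both PU.1 lists (65.9% with Veh and 63.5% with KLA). CEBPα peaks were at 4 genes with Veh (37.3%) and at 5 with KLA (37.6%). FosL2 peaks were at 5 genes with either treatment (21.3% with Veh and 27.9% with KLA), JunB KLA peaks at 5 (30.1%) and the JunB Veh list had 1 peak, at Abca1 (2.35%). In BALB/cJ, ATF3 was at 4 genes with Veh (45.0%) and 7 with KLA (58.9%), Jun at 5 (30.4%) and 6 (32.6%), and JunD at 7 (54.3%) and 7 (57.8%). Fos KLA was at 6 genes (58.3%) and JunB KLA at 5 (39.9%), and the 9 peaks of JunB Veh were at none of the 7 genes (0.0501%). In PPARgKO, ATF3 was at 7 genes (55.8%), JunD at 5 (49.5%) and Jun at 3 (16.5%). The share of peaks at the 7 genes that lay in the top 10% of their list, ties included, varied between lists. Among lists with at least 10 such peaks it was highest for CEBPα KLA, with 5 of 17 (29.4%, 10.1% of the list), CEBPα Veh, with 4 of 14 (28.6%, list 10.0%), and ATF3 Veh, with 5 of 20 in C57BL/6 (25.0%, list 10.1%). It was 8 of 38 for PPARγ (21.1%, list 10.2%), 3 of 38 for PU.1 Veh (7.89%, list 10.0%) and 0 of 12 for FosL2 KLA (list 10.5%).

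Abca1, the transporter that loads cholesterol and phospholipid onto apolipoprotein A-I, had its strongest AP-1 peaks in introns. The locus at +39.4 kb (chr4:53120229-53120719) had a peak in 25 lists. ATF3 was at the 98.3 percentile with Veh and 99.1 with KLA in C57BL/6, at 98.1 and 98.2 in BALB/cJ, and at 98.9 in PPARgKO. Jun was at 94.9 and 95.7 in C57BL/6 and at 75.9 and 92.3 in BALB/cJ, and JunD at 94.8 and 98.9 in C57BL/6 and at 94.3 and 98.2 in BALB/cJ. The locus was above the 90th percentile of each of these lists except BALB/cJ Jun Veh. Fos and JunB had peaks there only with KLA, at 94.7 and 97.7 in C57BL/6 and at 98.7 and 98.0 in BALB/cJ. FosL2 ranked lower, at 73.3 with Veh and 87.5 with KLA. CEBPα, a bZIP factor of myeloid cells, was at 95.2 and 98.0 and PPARγ at 92.8. PU.1, which opens macrophage enhancers, was at 31.7 with Veh (limits 21.6 to 40.8) and at 79.7 with KLA (71.7 to 85.7).

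Further intronic loci of Abca1 lay at +4.3, +9.2, +10.1, +37.8, +40.9 and +43.8 kb, with peaks in 22, 19, 24, 21, 19 and 17 lists. At +10.1 kb ATF3 was at 93.2 and JunD at 95.2 with Veh, and at 94.2 and 93.8 with KLA, in C57BL/6. The monomers differed in rank at +9.2 kb, where ATF3 Veh was at 92.7 and CEBPα Veh at 93.0 but JunD Veh at 50.7 and no Jun Veh peak was listed in C57BL/6. At +43.8 kb PPARγ was at 90.8, above every AP-1 list. At +4.3 kb ATF3 ranked higher with KLA than with Veh in both strains, at 91.8 against 70.8 in C57BL/6 and at 88.2 against 66.2 in BALB/cJ, and the counting limits did not overlap. Veh and KLA lists differ in length (23160 and 36745 peaks for ATF3 in C57BL/6), which moves percentiles by itself. Ranks were therefore also taken only among loci whose strongest Veh and KLA peaks overlap, which gives both lists the same number. In that ranking ATF3 at +4.3 kb was at 84.7 against 64.6 in C57BL/6, still beyond the limits, and at 75.7 against 59.3 in BALB/cJ, within them. The difference of JunD at +39.4 kb in C57BL/6 was beyond the limits only in the ranking over whole lists.

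**Figure D2:**
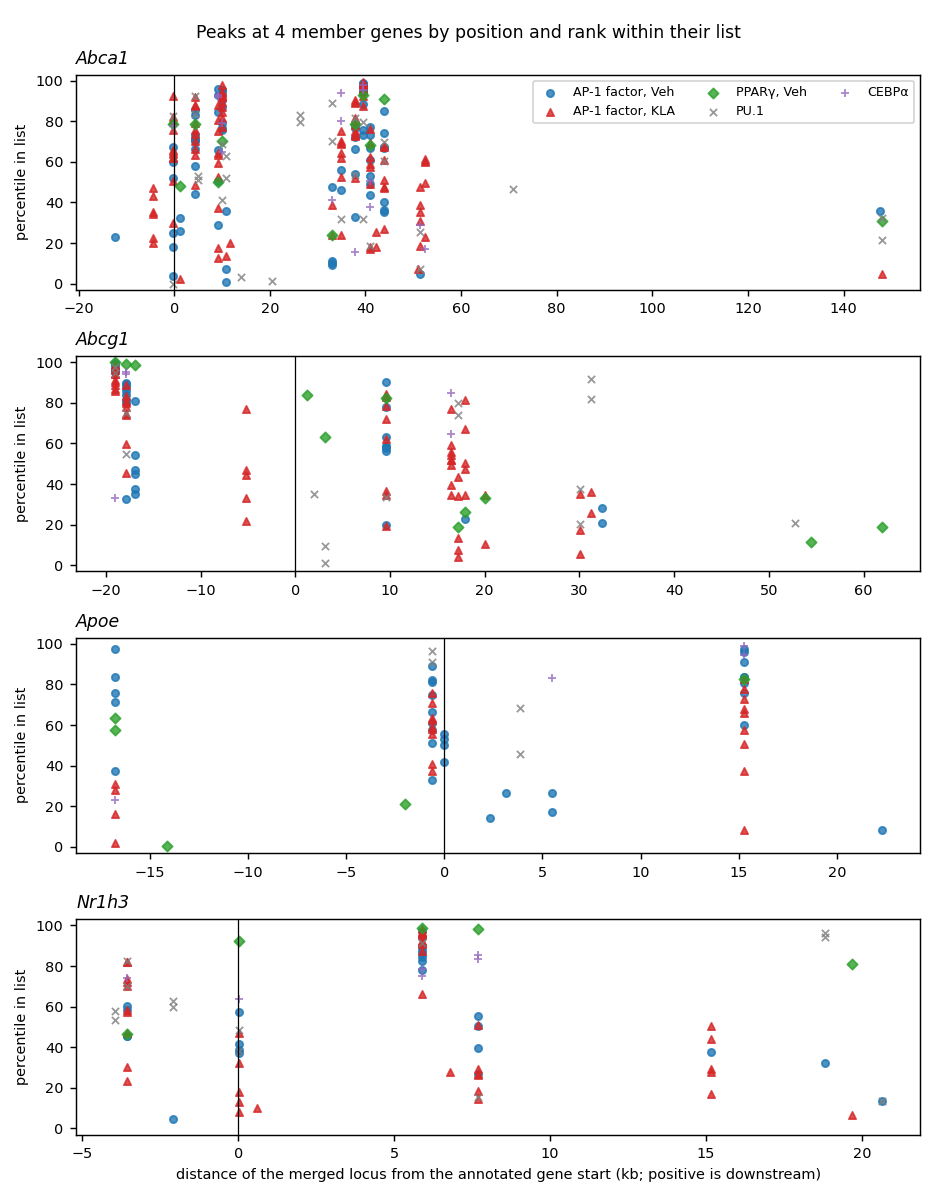
Each point is a peak in 1 list, placed by the distance of its locus from the annotated gene start (kb, positive downstream) and by its percentile within the list. Symbols separate AP-1 factors with Veh, AP-1 factors with KLA, PPARγ, PU.1 and CEBPα. High percentiles cluster at +39.4 and +10.1 kb of Abca1, at −19.1 kb of Abcg1, at +15.2 kb of Apoe and at +5.9 kb of Nr1h3.

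At the Abca1 promoter ATF3 in C57BL/6 and JunD in both strains ranked higher with KLA than with Veh. This locus (chr4:53159845-53160444, centred 249 bp before the start) had a peak in 21 lists. The ATF3 count in C57BL/6 was 28 with Veh, where the median of the list was 56, and 98 with KLA, where it was 74. ATF3 was at the 3.82 percentile with Veh (limits 0.0 to 27.0) and at 65.6 with KLA (54.1 to 74.7). The JunD counts were 35 and 471 in C57BL/6 (list medians 50 and 277) and 50 and 129 in BALB/cJ (43 and 49). JunD was at 18.2 (0.0 to 47.3) and at 80.8 (76.2 to 85.0) in C57BL/6, and at 59.8 (42.7 to 73.0) and 92.2 (86.7 to 95.6) in BALB/cJ. Limits of Veh and KLA did not overlap in these 3 pairs, also when only overlapping peaks were ranked, where ATF3 was at 2.12 and 46.3 and JunD at 11.3 and 67.9 in C57BL/6 and at 43.1 and 86.5 in BALB/cJ. ATF3 in BALB/cJ and Jun in C57BL/6 had peaks only with KLA, at 75.7 and 64.0. Jun in BALB/cJ was at 25.1 with Veh and 61.7 with KLA, with overlapping limits, and FosL2 went the other way, from 67.1 to 30.1, also with overlapping limits. PU.1 was at 0.0746 with Veh, a count of 110 that ranked 41543 of 41573, and at 82.6 with KLA, a count of 126 that ranked 7082 of 40645. These PU.1 peaks do not overlap each other and share only the merged locus, so that they are not values of 1 site. The CEBPα peak was listed with KLA only, at 77.8, and the PPARγ peak was at 78.8.

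A locus at +52.5 kb of Abca1 (chr4:53107215-53107652) had AP-1 peaks only after KLA and only in C57BL/6. ATF3 was at 60.6, JunB at 61.4, JunD at 59.9, Fos at 49.6 and Jun at 23.2, and CEBPα KLA at 17.2. No Veh list and no BALB/cJ list held a peak there. A second locus of Abca1 with AP-1 peaks in at least 3 lists, all after KLA, at −4.5 kb, was found in both strains, in 6 lists at percentiles from 20.1 to 47.2.

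Abcg1, the transporter that moves cholesterol to HDL, had its strongest site upstream of the gene. Abcg1 −19.1 kb (chr17:31038391-31038797) held a PPARγ peak with a count of 491, rank 20 of 31089, together with peaks of 24 other lists. Neighbouring loci at −17.9 and −16.9 kb had PPARγ counts of 283 and 258, at the 99.0 and 98.7 percentiles. AP-1 binding was strong at the first of these 3 loci in both treatments. JunD was at 99.3 with Veh and 96.2 with KLA in C57BL/6, and at 99.8 and 98.4 in BALB/cJ. ATF3 was at 96.5 and 94.1 in C57BL/6 and at 95.2 and 97.5 in BALB/cJ, and Jun at 95.5 and 91.3 in C57BL/6 and at 97.2 and 85.9 in BALB/cJ. Fos KLA was at 94.0 and 98.0 in the 2 strains. JunD in C57BL/6 ranked lower with KLA beyond the counting limits, as did JunD in BALB/cJ when only overlapping peaks were ranked (99.7 and 97.1). All of these peaks lay above the 85th percentile of their whole list. PU.1 was at 94.7 with Veh and 97.6 with KLA, a difference beyond the limits only among overlapping peaks (92.7 and 96.8), whereas CEBPα was at 33.1 with Veh and had no KLA peak. At −17.9 kb the order was different, with CEBPα at 95.3 and 94.2 and PU.1 at 55.0 and 75.2. At −16.9 kb AP-1 peaks were found only with Veh, for Jun and JunD in C57BL/6 and for ATF3, Jun and JunD in BALB/cJ, at percentiles from 35.2 to 80.9.

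Inside Abcg1, loci at +16.5, +17.2 and +30.1 kb, together with one at −5.2 kb, had AP-1 peaks in at least 3 lists and only with KLA. Of these, +16.5 kb (chr17:31073940-31074343) was found in 9 AP-1 lists of both strains, at percentiles from 34.5 for C57BL/6 Jun to 76.8 for BALB/cJ Fos. CEBPα was already present there with Veh, at 64.8, and was at 84.7 with KLA, beyond the counting limits. At −5.2 kb only ATF3, Fos, JunB and JunD KLA lists had peaks, and no other factor did. At +9.6 kb ATF3 ranked higher with KLA than with Veh in BALB/cJ, at 84.5 against 57.6, a difference that was within the limits among overlapping peaks (69.0 against 49.5), and PPARγ was at 82.6.

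Apoe, the apolipoprotein that accepts cholesterol and is secreted by macrophages, had its main sites at −0.6 and +15.2 kb, each with peaks in 20 lists. The site at +15.2 kb (chr7:19683782-19684095) lies downstream of Apoe, and the nearest coding start is that of Apoc4, at 2459 bp. CEBPα had its strongest Veh peak at the 7 genes there, at 98.9 (limits 97.7 to 99.5) and at 94.7 with KLA (91.0 to 97.0). ATF3 was at 91.0 and 82.5 in C57BL/6 and at 97.6 (95.3 to 99.0) and 77.7 (68.0 to 84.8) in BALB/cJ. JunD was at 80.7 and 72.7 in C57BL/6 and at 83.5 (74.5 to 89.7) and 57.5 (40.4 to 70.4) in BALB/cJ, and Jun at 83.9 and 66.1 in C57BL/6 and at 75.9 and 50.8 in BALB/cJ. The KLA percentile was lower in all 7 of these pairs, beyond the counting limits in 3 of them, CEBPα and the BALB/cJ lists of ATF3 and JunD. Among overlapping peaks ATF3 in C57BL/6 was so as well, at 88.8 with Veh and 69.6 with KLA. Fos peaks appeared with KLA only, at 8.08 in C57BL/6 and 68.0 in BALB/cJ. PU.1 had no peak at this locus.

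At −0.6 kb of Apoe (chr7:19699649-19699956) PU.1 was the highest ranked, at 96.7 with Veh and 91.1 with KLA, and there was no PPARγ or CEBPα peak. JunD was at 81.3 with Veh and 58.9 with KLA in C57BL/6, and at 89.0 and 63.7 in BALB/cJ, with limits that did not overlap in either strain. ATF3 was at 74.6 and 62.3 in C57BL/6 and at 57.6 and 70.8 in BALB/cJ, with overlapping limits. Among overlapping peaks the C57BL/6 values were 69.0 and 42.5, and these limits did not overlap. The start of Apoe itself had AP-1 peaks only with Veh, in 4 lists at percentiles from 41.6 to 55.6. The locus at −16.8 kb (chr7:19715378-19716574), 538 bp from the start of Tomm40, spanned 1197 bp and joined neighbouring peaks. It held the only Fos Veh peak at the 7 genes, at 97.4, and ATF3 was at 76.0 with Veh and 28.1 with KLA in C57BL/6.

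**Figure D3:**
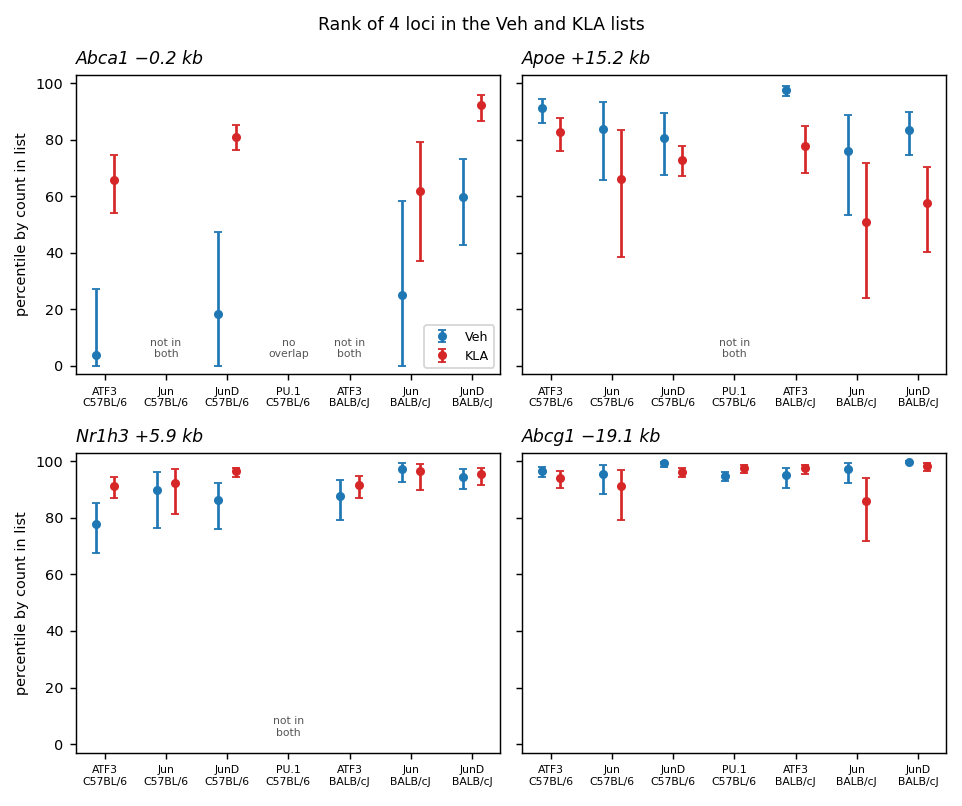
Percentile by count of 4 loci in the Veh list (blue) and the KLA list (red) of each factor and strain. Points are single lists and bars are the percentiles of the exact 95% Poisson limits of the count. FosL2 and CEBPα are not drawn, nor is PU.1 at the Abca1 promoter, whose Veh and KLA peaks do not overlap. KLA lies above Veh in each pair drawn for the Abca1 promoter and below Veh in each pair drawn for Apoe +15.2 kb. The undrawn FosL2 pair at the promoter goes the other way, from 67.1 with Veh to 30.1 with KLA.

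Among the receptors, the strongest peaks ranked high at Nr1h3, which had 12 loci, and lower at Nr1h2, which had 4. The annotated start of Nr1h3 lies beside that of Acp2, and the nearest start of a coding Nr1h3 transcript lies 1801 bp from the centre of the +5.9 kb locus (chr2:91196729-91197175). PPARγ had a count of 264 at this locus, at the 98.8 percentile, and 235 at +7.7 kb, at 98.3, 17 bp from a coding start. Fos KLA was at 98.1 in C57BL/6 and 96.6 in BALB/cJ. ATF3 was at 77.8 with Veh (67.6 to 85.3) and 91.2 with KLA (86.9 to 94.4) in C57BL/6, and at 87.8 and 91.6 in BALB/cJ. JunD was at 86.3 (76.1 to 92.5) and 96.4 (94.6 to 97.7) in C57BL/6, and at 94.5 and 95.5 in BALB/cJ, and Jun at 89.9 and 92.2 in C57BL/6 and at 97.4 and 96.5 in BALB/cJ. The C57BL/6 differences of ATF3 and JunD were beyond the counting limits, and those of BALB/cJ were not. Among overlapping peaks the C57BL/6 differences were within the limits too, at 72.8 and 83.7 for ATF3 and at 82.5 and 93.1 for JunD. PU.1 had a peak only with KLA, at 91.1. At −3.6 kb, in an intron of Acp2, JunD was at 58.2 and 82.1 in C57BL/6, beyond the counting limits but not among overlapping peaks (48.6 and 69.7), and at 45.6 and 73.4 in BALB/cJ, with overlapping limits. The +7.7 kb locus differed, with AP-1 peaks at or below 55.3 although PPARγ was at 98.3.

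At Nr1h2 the locus at the gene start (chr7:44553801-44554168) had peaks in 10 lists. ATF3 was at 32.5 and 49.3 and JunD at 1.97 and 23.2 with Veh and KLA in C57BL/6, and BALB/cJ had KLA peaks only, at 56.4 and 37.4. PU.1 was at 71.6 and 73.1, and the highest PPARγ percentile at Nr1h2 was 51.5. Mylip had its most widely found locus at −17.9 kb (chr13:45371631-45372005), in 12 lists with AP-1 percentiles from 2.46 to 68.3 and no PPARγ peak. The PPARγ peak at +2.0 kb of Mylip was at 59.9.

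Srebf1 had 2 loci where wild-type AP-1 peaks were found only after KLA. At +2.7 kb (chr11:60219701-60219997), in an intron, all 6 AP-1 monomers had a KLA peak in C57BL/6, from 0.835 for Jun to 67.6 for JunD, and 4 had one in BALB/cJ, from 11.1 for ATF3 to 68.8 for Fos. No wild-type Veh list held a peak there, but PPARgKO ATF3 Veh did, at 6.62. At +29.9 kb 6 KLA lists of both strains had peaks, from 2.5 to 50.9. Near the start, at −0.3 kb, PPARγ was at 59.9 and AP-1 peaks lay between 19.2 and 49.2.

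Over all AP-1 loci of the 7 genes, 31 had peaks with both Veh and KLA, 19 with KLA only and 14 with Veh only. These shares were close to those of the 70226 AP-1 loci of the series, of which 51.7% had both, 28.8% KLA only and 19.5% Veh only. PPARgKO lists count as Veh here. With the factors taken one at a time, 17 of 20 ATF3 Veh peaks overlapped a KLA peak in C57BL/6 (85.0%, 95% Wilson interval 64.0 to 94.8, against 81.1% of the list). The numbers were 19 of 23 for JunD (82.6%, list 77.8%) and 8 of 16 for Jun (50.0%, list 57.8%). In BALB/cJ they were 12 of 17 for ATF3 (70.6%, list 81.1%), 17 of 32 for JunD (53.1%, list 62.2%) and 12 of 14 for Jun (85.7%, 60.1 to 96.0, list 50.0%). FosL2 kept 7 of 8 peaks (87.5%, 52.9 to 97.8, list 49.2%). Of the 9 pairs of lists with at least 5 such peaks, the list share lay outside the interval for BALB/cJ Jun and FosL2 and inside it for the other 7. The list share lay inside the FosL2 interval under each of the 3 other ways of matching peaks, with 5 or 6 of 8 peaks kept. It stayed outside the interval of BALB/cJ Jun under all 3. Of those 14 Jun peaks, 6 were at Abca1 and 4 at Abcg1. The intervals treat peaks as independent, which neighbouring peaks of a gene may not be, and take no account of the number of pairs. Conversely, 19 of 36 ATF3 KLA peaks had no Veh peak in C57BL/6 (52.8%, list 48.8%), as did 12 of 20 for Jun (60.0%, list 48.6%), 14 of 33 for JunD (42.4%, list 51.6%) and all 23 for Fos (list 95.5%). PU.1 had 9 of 38 KLA peaks without a Veh peak (23.7%, list 24.7%). FosL2 had 5 of 12 (41.7%, 19.3 to 68.0, list 75.3%) and BALB/cJ Jun 4 of 16 (25.0%, 10.2 to 49.5, list 51.6%). The list share lay outside these last 2 intervals, but inside that of FosL2 (32.0 to 80.7, list 77.5%) and that of BALB/cJ Jun (14.2 to 55.6, list 53.8%) when midpoints within 100 bp were required.

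The percentile of a merged locus found in both treatments was compared in the same way, whether or not the peaks themselves overlap. Of 17 loci with ATF3 in both C57BL/6 lists, 3 ranked higher with KLA beyond counting limits (24.5% of all shared loci) and 1 ranked lower (8.19%). For JunD 4 of 19 ranked higher (21.9%) and 2 lower (10.8%), for PU.1 8 of 31 higher (18.3%) and 3 lower (19.9%), and for Jun none of 8 moved beyond the limits (4.84% higher and 4.06% lower over the list). Among overlapping peaks the balance was different for ATF3, with 2 of 17 higher (14.4% of such loci) and 4 lower (15.1%). For JunD 1 of 19 was higher (15.2%) and 2 lower (16.8%), and for PU.1 8 of 29 were higher (18.7%) and 3 lower (19.5%). The members' counts are small and are to be read beside these shares, and the loci described above, such as the Abca1 promoter and Apoe +15.2 kb, are single cases.

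AP-1 peaks at these genes often overlapped PPARγ. In C57BL/6 Veh, 17 of 20 ATF3 peaks (85.0%, list 60.4%), 21 of 23 JunD peaks (91.3%, list 69.2%) and 12 of 16 Jun peaks (75.0%, list 65.8%) overlapped a PPARγ peak. To ask which AP-1 sites were found without PPARγ, wild-type Veh peaks were matched to the PPARgKO lists. ATF3 kept 17 of 20 peaks (85.0%, 64.0 to 94.8, list 78.2%), JunD 11 of 23 (47.8%, 29.2 to 67.0, list 53.5%) and Jun 3 of 16 (18.8%, 6.59 to 43.0, list 21.8%). The order of the 3 monomers was that of the whole lists, and each list share lay inside the interval. When both Jun lists were cut to the same number of strongest peaks, 1 of 7 was kept (14.3%, 2.57 to 51.3) and the list share of 52.7% lay just outside the interval. The PPARgKO Jun list is short, with 4290 peaks against 15548 in the wild type, and its median count was 18. Peaks with PPARγ were kept by Jun in 2 of 12 cases (16.7%, list 28.6%) and those without PPARγ in 1 of 4 (25.0%, list 8.78%).

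The 3 kept Jun peaks were those at Abcg1 −19.1 kb, Abca1 +4.3 kb and Apoe −0.6 kb. At Abcg1 −19.1 kb, which has the strongest PPARγ peak of the 7 genes, Jun was at 95.5 in the wild type and at 96.8 in PPARgKO (limits 82.7 to 99.6). ATF3 was at 96.5 and 96.0 and JunD at 99.3 and 99.1, and the limits of wild type and PPARgKO overlapped for each monomer. The 2 Jun lists differ in length, and among overlapping peaks Jun was at 83.1 and 96.3, again with overlapping limits. At Abca1 +4.3 kb Jun was at 71.3 and 44.0. Jun peaks that overlapped PPARγ and had no PPARgKO peak were those at Abca1 +10.1, +39.4, +40.9 and +43.8 kb, Abcg1 −17.9, −16.9 and +9.6 kb, Apoe +15.2 kb, Nr1h3 +5.9 kb and Srebf1 −0.3 kb. Among them Abca1 +39.4 kb and Nr1h3 +5.9 kb ranked high in the wild-type Jun list, at 94.9 and 89.9. Over the list, 72.0% of Jun peaks above the 90th percentile were kept, 28.3% of those between the 50th and 90th and 5.08% of those below. At the 7 genes the numbers were 1 of 2, 2 of 9 and 0 of 5. At Abca1 +39.4 kb ATF3 and JunD were kept, at 98.9 and 88.7. At Nr1h3 +5.9 kb JunD was kept, at 82.6 against 86.3 in the wild type, and ATF3 had no PPARgKO peak although it was at 77.8 in the wild type. Such ATF3 peaks were few, since only this one and that at the start of Nr1h2 overlapped PPARγ and were not found in PPARgKO. JunD peaks with PPARγ and without a PPARgKO peak were those at Abca1 −0.2, +1.1 and +9.2 kb, Abcg1 +9.6 kb, the 2 peaks at Abcg1 −16.9 kb, Nr1h3 −3.6 and +0.0 kb, the start of Nr1h2 and Mylip +2.0 kb. Jun and JunD had no PPARgKO peak at Abcg1 −16.9 and +9.6 kb. In the other direction, PPARgKO ATF3 had 11 of 28 peaks without a wild-type peak (39.3%, list 36.1%).

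**Figure D4:**
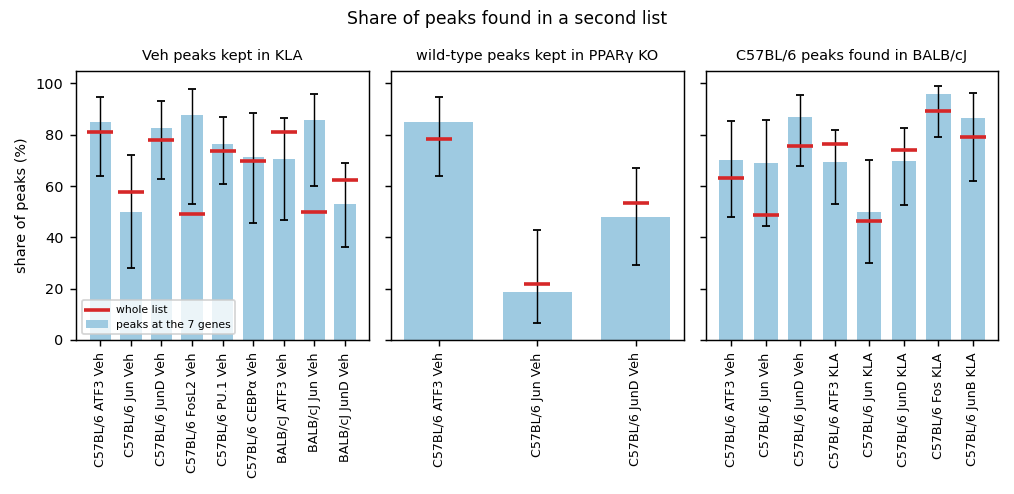
Bars give the share of peaks at the 7 genes that overlap a peak of the second list, with 95% Wilson intervals, and red marks give the share over the whole list. Only lists with at least 5 such peaks and a second list of at least 100 are drawn. Jun in PPARgKO has the lowest bar, at 18.8%, beside a list share of 21.8%.

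Between the strains, 14 of 20 ATF3 Veh peaks of C57BL/6 had a BALB/cJ peak (70.0%, list 63.0%), as did 11 of 16 for Jun (68.8%, list 48.6%) and 20 of 23 for JunD (87.0%, list 75.7%). With KLA the numbers were 25 of 36 for ATF3 (69.4%, list 76.5%), 10 of 20 for Jun (50.0%, list 46.5%), 23 of 33 for JunD (69.7%, list 74.0%), 22 of 23 for Fos (95.7%, list 89.4%) and 13 of 15 for JunB (86.7%, list 79.2%). Each list share lay inside the 95% Wilson interval of the members. For Fos KLA 10 of 22 shared loci ranked higher in BALB/cJ beyond counting limits and none lower (24.6% and 1.02% over the list). Among overlapping peaks 1 of 22 did, that at Apoe +15.2 kb, at 6.14 and 44.2 (4.51% of such loci higher and 5.28% lower). The 10 loci included Apoe +15.2 kb, at 8.08 in C57BL/6 and 68.0 in BALB/cJ, and the Abca1 promoter, at 50.8 and 82.2. The BALB/cJ Fos list is longer, with 40459 peaks against 24365, and its counts are higher, with a median of 65 against 51. Differences among overlapping peaks were not confined to Fos. For JunD KLA 2 of 23 loci ranked higher in BALB/cJ (8.49% of such loci) and none lower (7.27%). For ATF3 Veh 1 of 14 ranked higher (3.53%) and 1 lower (2.76%). The remaining pairs of lists had no member locus beyond the limits in this ranking. A difference between strains and a difference between experiments cannot be told apart with 1 list in each group.

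Most other genes of the pathway had peaks as well. Of 16 further LXR targets, such as Lpl, Pltp, Mertk and Scd1, 13 had an ATF3 Veh peak in C57BL/6 (47.5% of protein-coding genes), 11 a Jun Veh peak (39.4%), 12 a JunD Veh peak (45.9%) and 15 a PPARγ peak (62.2%). Apoc1, Apoc2 and Apoc4 are among them and share peaks with Apoe because their windows overlap. Windows of 9 genes of the SREBP2 pathway and of cholesterol uptake held an ATF3 Veh peak in 8 cases and a PPARγ peak in 8. Of 9 genes of cholesterol storage, export and oxysterol synthesis, all 9 had ATF3 Veh, Jun Veh and PPARγ peaks. All 5 genes of RXR partners and co-regulators had a PPARγ peak, and 4 had an ATF3 Veh peak. In PPARgKO, Jun had a peak at 4 of the 16 further LXR targets (16.5% of protein-coding genes). It had one at 3 of the 9 SREBP2 and uptake genes, against 5 for wild-type Jun Veh. It was at 6 of the 9 storage genes and at 3 of the 5 genes of RXR partners and co-regulators. At the 16 further LXR targets, PPARgKO ATF3 had a peak in 15 cases (55.8%) and JunD in 12 (49.5%).

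The genes whose profiles were nearest to those of 6 members were found by the distance between the percentiles of the strongest peaks over the 28 lists with at least 100 peaks. Abcg1 was matched most closely, by Asph and C3ar1, with root mean square differences of 3.09 and 3.59 percentile points. For Abca1 the nearest were Nlrp3 and Baz2b (6.71 and 6.78) and for Nr1h3 Pola2 and Stac2 (8.78 and 9.49). For Apoe they were Maea and Ppp2r5e (12.3 and 15.3), for Nr1h2 Atg16l2 and Acin1 (12.4 and 14.4) and for Mylip Hesx1 and Tmem136 (12.1 and 13.5). The lists share the cell type and many of their loci, and genes with a strong peak in every list resemble each other by this measure.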

How the data were processed

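ChIP-seq peak lists of 34 samples from TGEMs were used, of which 4 inputs have no list. The authors aligned reads with Bowtie2 and called peaks with HOMER on mm10, the tools and build named in the submitters' processing notes without versions, and kept peaks that were reproducible between replicates at an IDR of 0.05. BALB/cJ reads were aligned to a genome of that strain and shifted to mm10 positions. The deposited value of a peak is a read count without scaling to library size. The sources do not state how replicates were combined into it. The deposited IDR score runs from 540 to 1000 with many ties and was used only as an alternative ranking. Depth per library is not given in the sources used here, so that the length and the median count of a list stand for it, and limits on counts cover counting error only.

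Peak midpoints were assigned to windows of GENCODE vM21 genes, and peaks were matched by an overlap of at least 1 bp. Wilson intervals of shares and exact Poisson limits of counts are at 95%. With 1 list per group no test was made. The genes named were the 7 members. At each were named the locus found in most lists, those with the highest AP-1 percentile and PPARγ count, those with AP-1 peaks of at least 3 lists in only 1 treatment, and wild-type ATF3, Jun or JunD peaks with PPARγ but no PPARgKO peak. The 2 genes of nearest profile were also named, over lists of at least 100 peaks; those of Srebf1 are not reported here. Loci described beyond this rule were chosen after their values were seen. The members, the pathway lists and the marker lists were chosen with earlier results of these data known. Alternatives were other windows, overlap rules, rankings, list lengths and motif spans. The scripts were tested on simulated data with Python 3.11.15, pandas 2.3.3, numpy 2.4.6, SciPy 1.17.1, pysam 0.24.0 and matplotlib 3.10.9.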

Additional observations from a re-analysis of the deposited data

How the results depend on the processing

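With only the strongest 50% of each list, 353 peaks and 49 loci remained in the windows of the 7 genes, against 596 and 85. With windows of 10 kb there were 483 peaks at 71 loci, and with 50 kb 764 at 119. When both lists of a pair were cut to the same number of strongest peaks, the share of KLA peaks without a Veh peak was lower for C57BL/6 ATF3 (27.3%, list 33.7%), JunD (26.3%, list 39.4%) and FosL2 (16.7%, list 62.1%) and for BALB/cJ ATF3 (36.8%, list 37.4%). In the same setting JunD Veh kept 60.9% of its peaks with KLA (list 60.6%), and 81.8% of C57BL/6 Jun KLA peaks were found in BALB/cJ (list 59.3%). These shares thus depend on the length of the lists. For Jun kept in PPARgKO the list share moved out of the interval in that setting (14.3%, 2.57 to 51.3, list 52.7%). For FosL2 Veh kept in KLA it moved into the interval (62.5%, 30.6 to 86.3, list 38.0%), as it did with 50% reciprocal overlap (75.0%, 40.9 to 92.9, list 46.1%) and with midpoints within 100 bp (62.5%, list 44.9%). For KLA peaks without a Veh peak it moved into the interval of BALB/cJ Jun with 50% reciprocal overlap (31.2%, list 53.0%) and with midpoints within 100 bp, and into that of FosL2 with the latter only. No member share moved beyond its interval with 50% reciprocal overlap or with midpoints within 100 bp. Motifs searched in the central 100 bp gave no CRE (0), 1 C/EBP-ATF motif and no DR4 (0) at the 85 loci. Of 152 gene and list pairs, ranking by score put 121 at the 100 percentile, since scores are tied at their ceiling. Ranking only peaks shared between treatments changed 88 such values by a median of -3.85 points (-56.6 to -0.1), 24 of them by over 10. Ranking overlapping peaks among themselves was chosen after seeing the data. Here a locus counts once for each pair of Veh and KLA lists, so 1 site can count several times. Of 20 such cases that ranked higher with KLA, 8 were of PU.1 and 2 of CEBPα. This ranking put 6 of the 20 within the limits and could not be done for 1 of them. It left all 10 lower cases beyond the limits and added 5. Other alternatives chosen after seeing the data left out 3 short Veh lists (594 peaks, 85 loci) or used only C57BL/6 lists, which gave 23 AP-1 loci with both treatments, 17 with KLA only and 7 with Veh only, where the series had 12.9% with Veh only. No paired analysis was possible because each group is 1 list and the labels give no replicate numbers, and for the same reason no replicate could be left out. A peak missing from a list, such as PPARgKO Jun, is one that did not pass the threshold there, and its absence does not show a loss of binding.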
